A study of Mus musculus with 24 samples.

Results

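The Schlafen genes of the mouse were followed through the first day of CD4+ T cell activation by RNA sequencing. The members were taken by name, as the rows of the deposited expression table for Slfn1, Slfn2, Slfn3, Slfn5, Slfn8 and Slfn9, and all 6 were found among its 22009 named entries. The cells were wildtype C57BL/6 CD4+ T cells, purified from adult spleen by negative selection, and the study's methods give them as a pool of several mice. There were 24 libraries. In 2 of them the cells were resting, taken without stimulation. In 18 of them the cells had been stimulated with anti-CD3 and anti-CD28 for 4, 8, 12, 16, 20 or 24 h. Nothing else was added in Th0; Th1 cultures also received IL-12 and an antibody to IL-4; Th2 cultures also received IL-4 and antibodies to IL-12 and IFN-γ. Each combination was sequenced once. For the last 4 libraries, 16 h of stimulation were followed by 0, 1, 2 or 4 h with actinomycin, which blocks transcription. The culture condition of these was not used here, since the labels do not state it. The 18 cultures are therefore 3 series of single libraries from 1 pool, and a p-value measures the spread between these libraries, not between animals.

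Schlafen proteins take their name from the German word for sleeping, because the first of them to be described slowed the growth of thymocytes and T cells. The family falls into short proteins (Slfn1 and Slfn2), intermediate ones (Slfn3 and Slfn4), and long ones that carry an additional helicase-like domain (Slfn5, Slfn8, Slfn9 and Slfn14). Several are induced by interferons, some cleave transfer RNA, and Slfn2 is needed to keep mouse T cells quiescent.

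All 6 genes lay in 1 cluster on chromosome 11, from 82951349 to 83215154 in GRCm38 (263.8 kb). In the order of the chromosome these were Slfn5 on the plus strand, Slfn9 and Slfn8 on the minus strand, and Slfn2, Slfn1 and Slfn3 on the plus strand. The members share sequence with other genes, in part with each other. Of the 50-base windows in the transcripts of Slfn8, 14.6% also occurred in another gene, and so did 16.0% for Slfn3, 11.9% for Slfn9, 11.1% for Slfn5, 4.27% for Slfn2 and 0.606% for Slfn1. Partner genes were recorded only where they had a Schlafen name or were Gm11427, so the list of partners is not complete. Among these, Slfn8 shared windows with Slfn9 and the pseudogene Slfn10-ps, and Slfn3 mainly with Slfn4 and Gm11427. Slfn5 shared them with Slfn5os, and Slfn2 with Slfn4. The antisense genes Gm20234 and Slfn5os overlap Slfn2 and Slfn5. How shared reads and strand were counted is not given in the sources used here, so values of each member are uncertain to that extent.

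The promoter windows of the 6 members (RefSeq, GRCm38.p6, 250 bases before to 50 after each start) were searched on both strands for the core of the interferon-stimulated response element, the letters GAAANNGAAA, which interferon-activated transcription factors bind. The core was present in the windows of Slfn5, Slfn8 and Slfn9 and not in those of Slfn1, Slfn2 and Slfn3; 3.44% of all 32851 promoter windows held it. The 60 bases around each match are shown because these 3 genes are the long ones among the 6 members and their levels are compared with interferon response genes further on. The window of Slfn14, a long Schlafen gene that is not a member, did not hold the core. The match is in capitals. In Slfn5 it began 155 bases before the RefSeq start, and in Slfn9 45 bases before it. The cluster coordinates above are from GENCODE, where Slfn5 starts at 82951349, so that the Slfn5 match lies within the gene by that annotation. In Slfn8, which has a pair of RefSeq starts, it began 48 bases before one and 136 before the other. Each sequence is written along its gene, and for Slfn8 and Slfn9 the core lies on the opposite strand.
Slfn5, chr11:82951922-82951981 (+): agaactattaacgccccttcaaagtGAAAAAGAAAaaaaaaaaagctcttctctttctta
Slfn8, chr11:83020824-83020883 (-): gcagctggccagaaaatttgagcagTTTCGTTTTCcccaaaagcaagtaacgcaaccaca
Slfn9, chr11:82991841-82991900 (-): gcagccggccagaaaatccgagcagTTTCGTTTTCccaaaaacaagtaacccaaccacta
The stretches of Slfn8 and Slfn9 hold the same 10 letters in the match and have the same base at 44 of 60 positions without gaps (73.3%).

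Values are RPKM as deposited, that is, reads scaled to the length of the transcript and to the mapped reads of the library. Library depth was recovered from the values and ran from 17512385 to 33017133 mapped reads. For Slfn1, Slfn2 and Slfn3 the values were whole numbers of reads, so their counting error is known, whereas Slfn5, Slfn8 and Slfn9 gave no single step and have none. Resting libraries differed from the cultures in more than stimulation. Their titles carry another number than those of the cultures, whose meaning the labels do not give, so whatever it marks cannot be told apart from activation. All 20 of 20 monocyte and macrophage markers were higher in both resting libraries than in every culture, and their sum was 1127 and 1147 RPKM at rest against 63.2 to 182 RPKM in the cultures. Red cell transcripts summed to 38904 and 42455 RPKM at rest and to between 142 and 212 RPKM at 24 h; leaving out the haemoglobin genes and rescaling the rest changed no call of a member. The 7 CD4 T cell markers measured (Cd3d, Cd3e, Cd3g, Cd4, Lck, Cd5 and Cd28) were high throughout, with sums of 1843 and 1859 RPKM at rest and 1147 to 1564 RPKM in the cultures. The part of these other cells in changes against resting was not tested, and fewer cells of a type and less RNA per cell cannot be told apart in bulk RNA.

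Slfn2 was the most abundant member in every library. It was at 180 and 163 RPKM in resting cells. At 4 h it stood at 418, 436 and 522 RPKM in Th0, Th1 and Th2, and from then on between 392 and 607 RPKM, so that all 18 cultures lay above both resting libraries. Tested with limma on log2(RPKM + 0.5), the rise over resting was 1.41 ± 0.15 (log2, SE) at 4 h, with an adjusted p of 3.09e-06, and it was largest at 12 h (1.78 ± 0.15, adjusted p = 5.7e-08). It passed the threshold (adjusted p under 0.05 and at least 2-fold) at all 6 time points, with a 2.84-fold rise at 24 h.

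Slfn1, the other short member, rose early and then declined. It was at 91.1 and 93.0 RPKM at rest and reached 335, 276 and 245 RPKM at 4 h in Th0, Th1 and Th2. In Th0 it held at 342 RPKM at 8 h before falling through 204, 165 and 126 to 105 RPKM at 24 h. In Th2 it was already down to 101 RPKM at 8 h, and from 12 h on it lay between 58.4 and 79.1 RPKM, below both resting libraries. The rise over resting was called at 4 h (1.61 ± 0.47, 3.06-fold, adjusted p = 0.0151), a call that was lost when either resting library or the Th1 cultures were left out (adjusted p from 0.0809 to 0.103), although the fitted rise stayed between 1.60 and 1.63. At 8 h it was 0.90 ± 0.47 (adjusted p = 0.125), or 1.28 and called without the Th2 cultures (adjusted p = 0.0126), and at 24 h -0.28 ± 0.47 (adjusted p = 0.616).

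Slfn3, of the intermediate group, moved little. It was at 8.95 and 8.89 RPKM at rest, and the lowest of the 18 cultures was 6.08 RPKM (Th2 at 8 h), the median 7.75 RPKM and the highest 10.4 RPKM (Th1 at 24 h). Each series dipped and came back, with its lowest value at 16 h in Th0, 12 h in Th1 and 8 h in Th2. The fitted changes ran from -0.37 ± 0.16 at 12 h (adjusted p = 0.0469, under 2-fold) to 0.15 ± 0.16 at 24 h, and none was called.

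**Figure D1:**
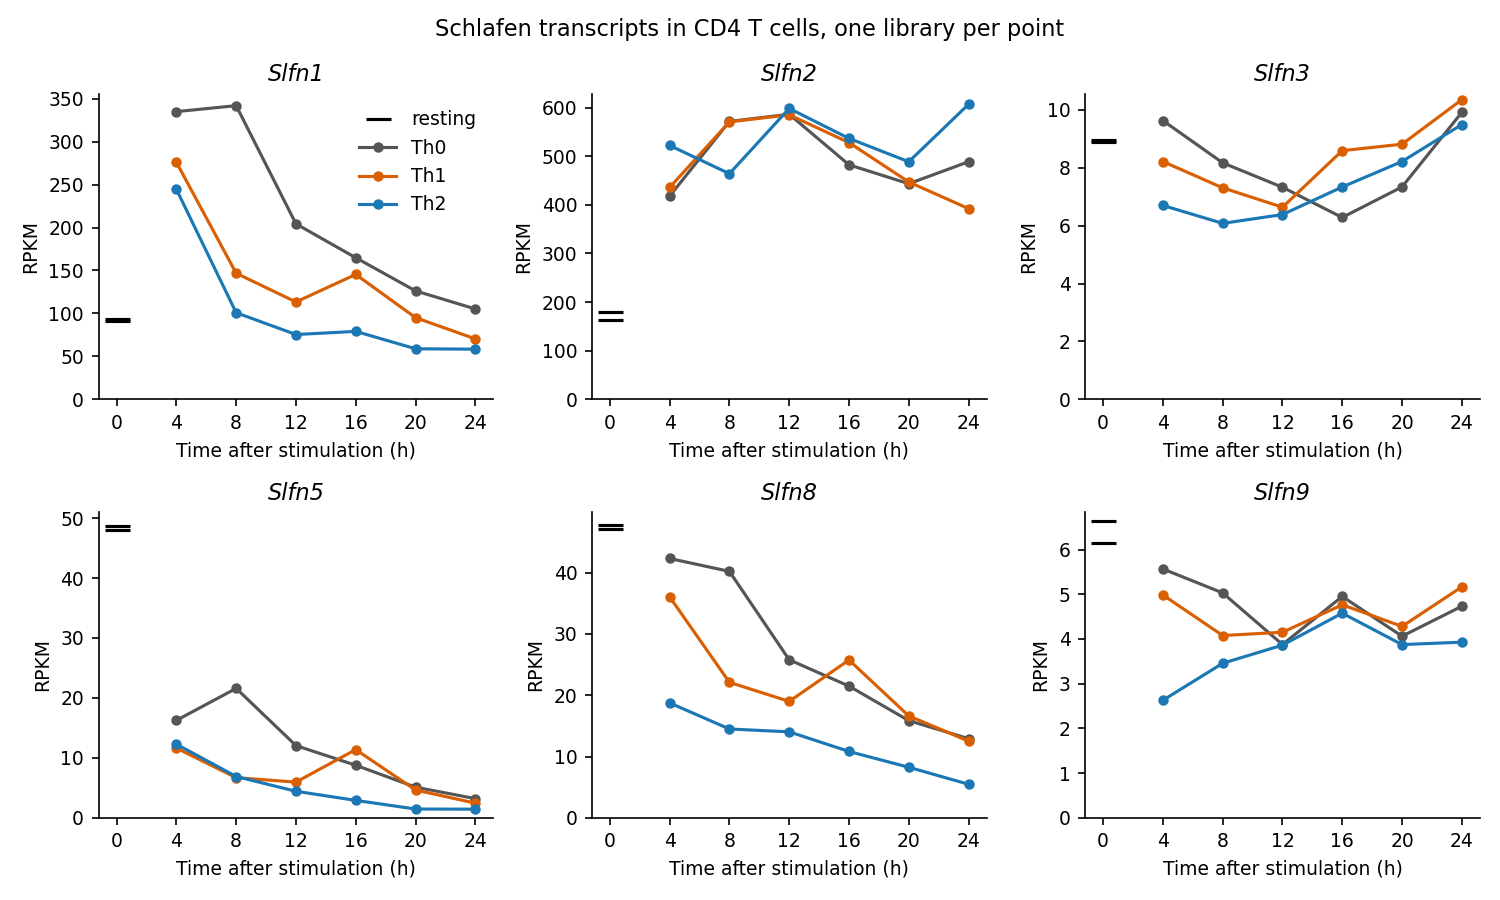
RPKM (vertical axis, from 0) of each member against hours after stimulation, with 1 library per point; bars at 0 h are the 2 resting libraries, and lines join the Th0, Th1 and Th2 cultures. Slfn2 stayed above rest in 18 of 18 cultures, Slfn5, Slfn8 and Slfn9 stayed below rest in 18 of 18, and Slfn1 began above rest and ended at 58.4 RPKM in Th2. The share of all genes that stay on 1 side of rest in 18 of 18 cultures was not computed.

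Slfn5, a long member, fell furthest. From 48.0 and 48.7 RPKM at rest it was down to 16.3, 11.6 and 12.3 RPKM at 4 h in Th0, Th1 and Th2, and to 3.20, 2.45 and 1.44 RPKM at 24 h. All 18 cultures were below both resting libraries. The fall was called at all 6 time points, from -1.83 ± 0.57 at 4 h (adjusted p = 0.0219) to -4.14 ± 0.57 at 24 h (17.6-fold, adjusted p = 1.24e-05). At 4 h the call was lost without either resting library or without the Th1 cultures (changes from -1.84 to -1.74, adjusted p from 0.105 to 0.107), and at 8 h, where Slfn5 fell by 2.21 on the log2 scale, without the Th1 cultures (adjusted p = 0.0519). Slfn5 and Slfn8 stood at nearly the same level at rest (48.3 ± 0.5 and 47.4 ± 0.5 RPKM, mean ± SD, n = 2), but Slfn8 went down later. It was still at 42.3 RPKM in Th0 and 36.1 RPKM in Th1 at 4 h, when Th2 was at 18.7 RPKM, and reached 12.9, 12.5 and 5.48 RPKM at 24 h. The change was -0.62 ± 0.48 at 4 h (adjusted p = 0.347) and -0.999 ± 0.48 at 8 h (adjusted p = 0.0907, or 0.0354 and called without the Th0 cultures); from 12 h on it was called, ending at -2.24 ± 0.48 at 24 h (4.72-fold, adjusted p = 0.00063). The calls of Slfn8 at 12 and 16 h did not hold without either resting library (changes from -1.37 to -1.28, adjusted p from 0.0825 to 0.0992). At 12 h the same happened without the Th1 cultures (adjusted p = 0.0936), and at 16 h without the Th2 cultures the fall was just short of 2-fold.

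Slfn9, the neighbour of Slfn8, was the least abundant member at rest, with 6.15 and 6.64 RPKM. The cultures had a lowest value of 2.63 RPKM (Th2 at 4 h), a median of 4.22 RPKM and a highest value of 5.57 RPKM (Th0 at 4 h), so that both resting libraries were above all 18 of them. The fitted changes lay between -0.63 ± 0.21 at 12 h (adjusted p = 0.0169) and -0.39 ± 0.21 at 16 h (adjusted p = 0.123). None reached 2-fold, and none was called.

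Against resting, 3 members were called at 4 h (2 up and 1 down), when 10.6% of the 10897 genes tested were called in either direction. At 8 h 2 members were called (1 up and 1 down, 18.9% of all genes). At each later time point 3 members were called (Slfn2 up, Slfn5 and Slfn8 down), when 27.1% of all genes were called at 12 h, 25.7% at 16 h, 29.0% at 20 h and 30.1% at 24 h. The median change of all genes lay between -0.07 and -0.01. Slfn2, Slfn5, Slfn8 and Slfn9 lay on 1 side of both resting libraries in every culture. The share of all genes that do so was not computed, so this separation is descriptive.

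**Figure D2:**
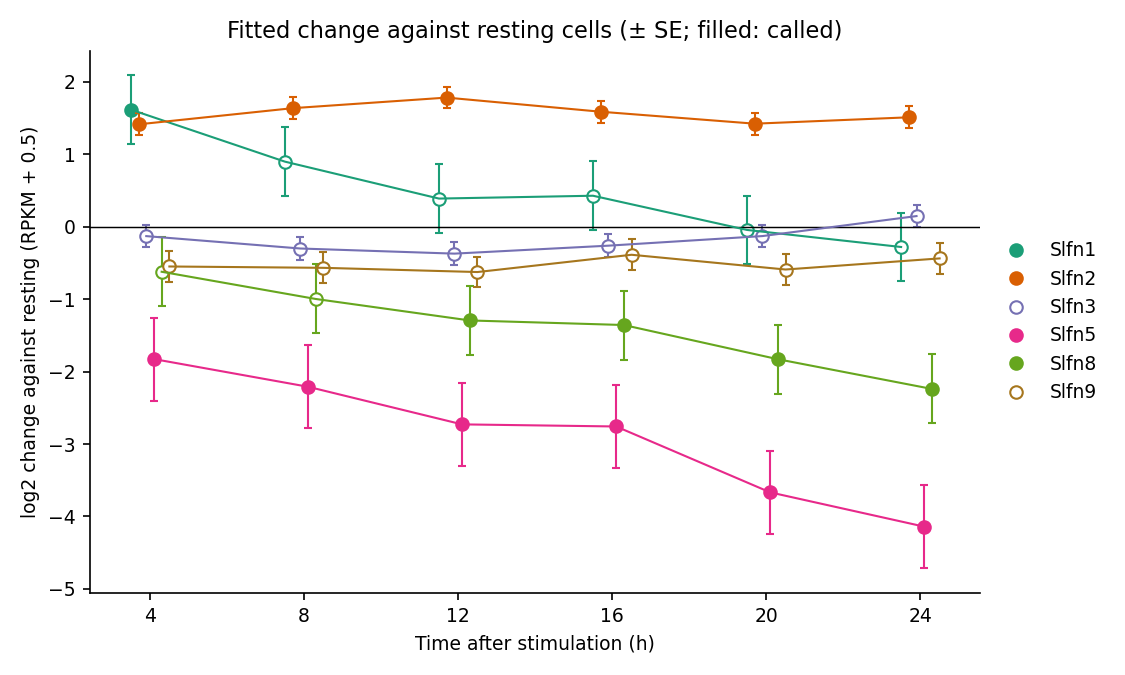
Fitted log2 change of each member against resting (vertical axis, log2(RPKM + 0.5), ± SE) at each time point (horizontal axis, h), with filled points for those called. Slfn2 stayed between 1.41 and 1.78, Slfn5 ended at -4.14 and Slfn8 at -2.24, while Slfn3 and Slfn9 stayed within 1 of 0.

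As a result of these movements the make-up of Schlafen RNA changed. Slfn2 made up 47.1% and 44.5% of the summed RPKM of the 6 members at rest, and 78.2%, 79.5% and 88.5% at 24 h in Th0, Th1 and Th2. Slfn5 and Slfn8 together went the other way: each was 12.5% to 13.2% of the sum at rest, and at 24 h Slfn5 was 0.513%, 0.497% and 0.211% and Slfn8 2.07%, 2.54% and 0.799%. Per kilobase, the order at rest was Slfn2, Slfn1, Slfn5 with Slfn8, Slfn3 and Slfn9. By 24 h Slfn5 was the lowest member in all 3 conditions, and in Th2 Slfn3 (9.49 RPKM) had come to stand above Slfn8 (5.48 RPKM).

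Within the cultures, and so without the resting libraries in the contrast, 24 h was compared with 4 h. Slfn1, Slfn5 and Slfn8 fell, and 26.2% of all genes were called in either direction. Slfn1 fell by 1.90 ± 0.42 on the log2 scale (adjusted p = 0.000913), Slfn5 fell by 2.31 ± 0.51 (adjusted p = 0.00088) and Slfn8 fell by 1.62 ± 0.43 (adjusted p = 0.00321). In each of the 3 series the 24 h library was below the 4 h library for these genes; for Slfn1 the ratio was 0.314 in Th0 (95% interval 0.304 to 0.324), 0.255 in Th1 (0.246 to 0.265) and 0.239 in Th2 (0.229 to 0.249), intervals that cover counting error only. Slfn2 (0.10 ± 0.13), Slfn3 (0.28 ± 0.14) and Slfn9 (0.11 ± 0.19) did not pass the test. Of the genes listed for T cell quiescence, which hold naive cells at rest, 13 of 26 tested fell and 1 rose between 4 and 24 h (median -1.01), the largest fall being that of Il7r, the IL-7 receptor chain (-3.64 ± 0.68), while the lymph node homing receptor Ccr7 rose (1.12 ± 0.18). The median of all genes was -0.01. Markers of other cells also went down over these hours: 12 of 15 monocyte and macrophage markers tested fell (median -1.74), as did 8 of 8 red cell markers (median -7.42), 5 of 8 NK cell markers (median -1.90) and 5 of 10 B cell markers (median -1.02). Their part in the falls of Slfn1, Slfn5 and Slfn8 was not tested.

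The conditions were compared in the 18 cultures, matched by time point. Slfn1, Slfn5 and Slfn8 were lower in Th2 than in Th0, when 2.01% of the 10737 genes tested were called in either direction (20 up and 196 down). Slfn8 was lower by 1.08 ± 0.12 on the log2 scale, 2.11-fold (adjusted p = 8.12e-06). At single time points the Th2 library held between 0.360 and 0.544 of the Th0 level of Slfn8. For Slfn1 the difference was -1.11 ± 0.13 (2.15-fold, adjusted p = 2.42e-05), with Th2 at 0.295 of Th0 at 8 h and 0.730 at 4 h. Slfn5 differed by -1.20 ± 0.22 (2.30-fold, adjusted p = 0.00112). Without the 8 h libraries Slfn1 came to -0.98, and over 12 to 24 h alone Slfn8 came to -0.97, each just under 2-fold (adjusted p = 5.29e-05 and 7.45e-05). The other members were Slfn2 (0.11 ± 0.09, adjusted p = 0.401), Slfn3 (-0.13 ± 0.10, adjusted p = 0.324) and Slfn9 (-0.31 ± 0.11, adjusted p = 0.0519), and none was called.

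No member was called between Th2 and Th1, where 1.96% of all genes were, since no difference reached 2-fold. Slfn8 (-0.87 ± 0.12, adjusted p = 7.78e-05) and Slfn1 (-0.52 ± 0.13, adjusted p = 0.0156) nevertheless had adjusted p-values under 0.05. The Th2 library was the lower at 6 of 6 time points for Slfn1, Slfn3, Slfn8 and Slfn9, as it was for 10.8% of all genes. For Slfn1 each of these 6 ratios was below 1 beyond counting error, and for Slfn3 it was so at 3 of 6. Slfn5 was lower in Th2 at 4 of 6 time points. At 4 h it was at 12.3 RPKM in Th2 and 11.6 RPKM in Th1, and at 20 h at 1.47 RPKM in Th2 and 4.64 RPKM in Th1. Its difference was -0.68 ± 0.22 (adjusted p = 0.0579) over all time points and -1.04 (adjusted p = 0.0027) over 12 to 24 h. Against Th0, Slfn1, Slfn5, Slfn8 and Slfn9 were lower in Th2 at 6 of 6 time points, as were 14.6% of all genes.

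Between Th1 and Th0 no member was called either (0.494% of all genes were). Slfn1 came closest, at -0.58 ± 0.13 (adjusted p = 0.0291), and was lower in Th1 at 6 of 6 time points, as were 7.38% of all genes. Th1 at 8 h stood at 0.429 of the Th0 level of Slfn1, 0.310 of that of Slfn5 and 0.550 of that of Slfn8. Whether the distance between conditions changed over time was tested with a term of condition by hours, scaled to the 20 h from 4 to 24 h. No member was called for Th2 against Th0 (3.93% of all genes), Th2 against Th1 (0.95%) or Th1 against Th0 (0.0279%). For Slfn5 in Th2 against Th1 the fitted change was -1.30 ± 0.58 (adjusted p = 0.255).

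**Figure D3:**
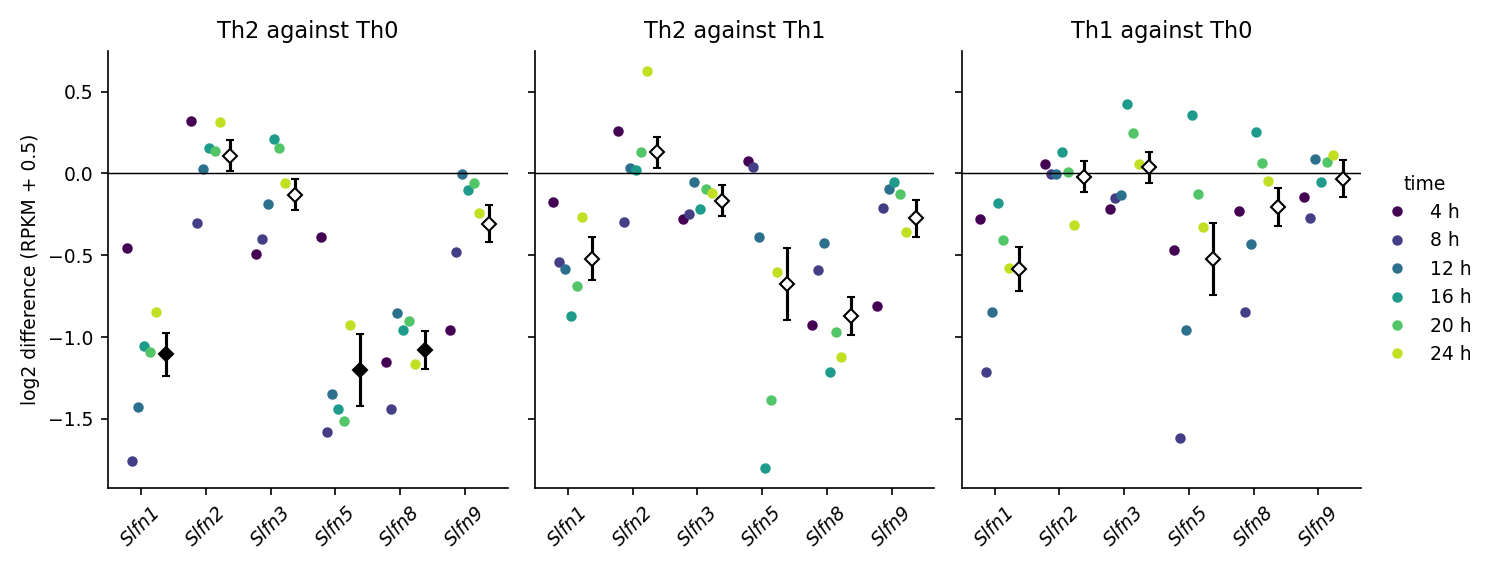
Difference of each member between conditions (vertical axis, log2(RPKM + 0.5)); coloured points are single time points and black diamonds the fitted difference ± SE, filled where called. In Th2 against Th0, Slfn1, Slfn5 and Slfn8 lie below 0 at all 6 time points and are called, while Slfn2 is fitted at 0.11.

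The Th1 library at 16 h departed from the course of its series. Slfn5 was at 5.96 RPKM at 12 h, 11.4 RPKM at 16 h and 4.64 RPKM at 20 h in Th1. Slfn8 went from 19.0 to 25.8 and back to 16.6 RPKM, and Slfn1 from 113 to 145 and back to 95.1 RPKM. From 12 to 16 h all 3 genes went down in Th0, and in Th2 Slfn5 and Slfn8 went down while Slfn1 went from 75.5 to 79.1 RPKM. From 12 to 16 h in Th1, Slfn3 rose from 6.64 to 8.59 RPKM and Slfn9 from 4.15 to 4.76 RPKM, while Slfn2 fell from 585 to 528 RPKM. Of 50 interferon response genes measured, 47 were higher in the Th1 library at 16 h than at 12 h (median 0.53 on the log2 scale) and 45 were lower at 20 h than at 16 h (median -0.64). The shares of all genes that moved in these steps were not computed. Leaving out the 16 h time point changed no call of a member between conditions.

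Over the 18 cultures Slfn1, Slfn5 and Slfn8 moved together. Pearson's r of log2(RPKM + 0.5) was 0.94 for Slfn1 with Slfn5, 0.94 for Slfn5 with Slfn8 and 0.92 for Slfn1 with Slfn8. It was 0.54 for Slfn3 with Slfn9, and between -0.38 and 0.01 for Slfn2 with the other members. With the 2 resting libraries included (20 libraries), r was 0.55 for Slfn1 with Slfn5, 0.94 for Slfn5 with Slfn8 and 0.67 for Slfn1 with Slfn8, and Slfn2 went against Slfn5 (-0.63), Slfn8 (-0.53) and Slfn9 (-0.67). These values are descriptive, since the libraries share their time points, conditions and cell pool. In the 18 cultures the same 3 genes followed the median of the interferon response list (r = 0.93, 0.94 and 0.95 for Slfn1, Slfn5 and Slfn8). The other members did not follow it closely there (r from -0.12 to 0.19). With the 2 resting libraries included, r was 0.87, 0.80 and 0.89 for Slfn1, Slfn5 and Slfn8. How many of all genes reach such an r was not computed. The list, which holds no Schlafen gene, behaved in the comparisons as follows. In Th2 against Th0, 36 of 48 genes tested fell and none rose (median -1.48, against 0.00 for all genes), led by the interferon-γ-inducible GTPase genes Iigp1 (-2.96 ± 0.20) and Gbp2 (-2.81 ± 0.16). In Th2 against Th1, 30 of 48 fell (median -1.25), and between 4 and 24 h 33 of 49 fell and none rose (median -1.94). At rest the relation was another: the list's median was 4.90 (log2) in both resting libraries, within the range of the cultures, whereas Slfn5 and Slfn8 were higher there than in any culture. Of the 3 genes that followed the list, Slfn5 and Slfn8 have a window with the response element core and Slfn1 has not, while Slfn9 has the core and r = 0.19.

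**Figure D4:**
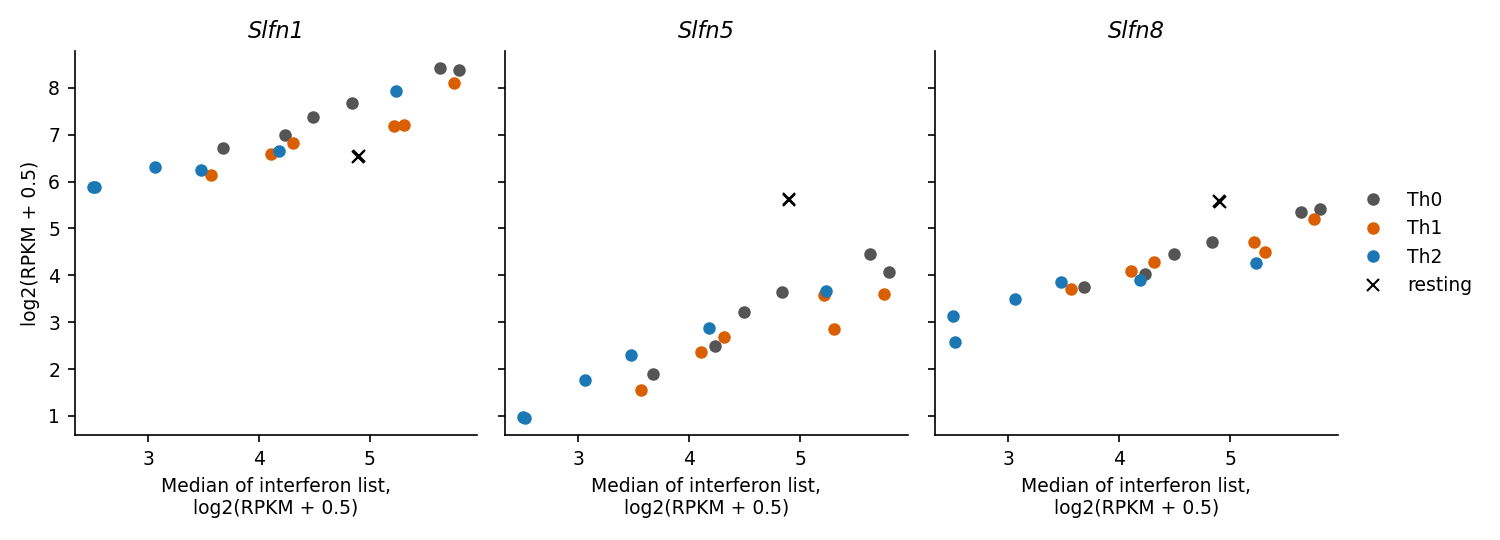
log2(RPKM + 0.5) of Slfn1, Slfn5 and Slfn8 (vertical axes) against the median of 50 interferon response genes in the same library (horizontal axis), with 1 point per library. The 18 cultures lie along a band in each plot (r from 0.93 to 0.95), and the 2 resting libraries, marked by crosses, lie above it for Slfn5 and Slfn8 and below it for Slfn1.

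Among all 10897 genes tested over the 20 libraries of the time course, those with the pattern most like each member were named by Pearson's r. For Slfn5 these were Ddx60 (0.98), Txnip (0.97) and Oas2 (0.97); Ddx60 and Oas2 belong to the antiviral interferon response, and Txnip encodes the thioredoxin-interacting protein, a restraint on glucose uptake. For Slfn8 they were Gm4955 (0.98), H2-T24 (0.98) and A430078G23Rik (0.98), and for Slfn1 Tnfrsf26 (0.98), 2810474O19Rik (0.97) and Gimap9 (0.97). Slfn2 was most like Tm9sf2 (0.94), Katnbl1 (0.93) and Vmp1 (0.93). The leading genes of Slfn3 were Akip1 (0.90), Dsn1 (0.86) and Sass6 (0.85), of which Dsn1 and Sass6 encode kinetochore and centriole proteins, and those of Slfn9 were Pts (0.91), Slain2 (0.90) and Spop (0.87).

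When transcription was blocked with actinomycin, only Slfn2 lost RNA beyond the test's threshold, and 20.9% of the 10571 genes tested were called. Slfn2 went from 615 RPKM at 0 h to 474 at 1 h, 369 at 2 h and 193 RPKM at 4 h, when 31.5% was left (ratio 0.315, 95% interval 0.306 to 0.324, counting error only). The slope was -0.42 ± 0.06 per hour on the log2 scale (adjusted p = 1.05e-08 with limma over 4 libraries, where the spread is largely shared between genes). The exact permutation test of the 4 time points gave a two-sided p of 0.0417, the smallest it can give. Since RPKM is relative to all RNA of the library, a slope is relative too, and the median slope of all genes was 0.00.

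Slfn1 fell from 87.9 to 70.7 RPKM in the first hour and then held at 70.3 and 69.8 RPKM (slope -0.07 ± 0.06, adjusted p = 0.416). Slfn5 was at 4.77, 5.12, 3.81 and 3.21 RPKM (slope -0.15 ± 0.08, adjusted p = 0.205), and Slfn3 at 8.20, 6.86, 6.29 and 6.71 RPKM (slope -0.06 ± 0.07, adjusted p = 0.622). The ratio of 4 h to 0 h was 0.794 for Slfn1 (95% interval 0.755 to 0.836) and 0.819 for Slfn3 (0.691 to 0.969). Both were below 1 beyond counting error, which is all that these intervals cover. Slfn8 stood at 10.0, 8.89, 9.61 and 13.1 RPKM and Slfn9 at 4.15, 4.42, 4.08 and 6.14 RPKM, both highest at 4 h, with slopes of 0.11 ± 0.07 (adjusted p = 0.276) and 0.12 ± 0.08 (adjusted p = 0.278). Without the 4 h library these became -0.03 and -0.01. The exact p-values of these 5 members ran from 0.125 to 0.375. The library at 0 h of actinomycin held Slfn1 at 87.9, Slfn5 at 4.77 and Slfn8 at 10.0 RPKM. These were nearer to the Th2 culture of 16 h (79.1, 2.91 and 10.8 RPKM) than to Th0 (165, 8.77 and 21.5 RPKM) or Th1 (145, 11.4 and 25.8 RPKM). Slfn3 (8.20 RPKM) was nearest to Th1 (8.59 RPKM). Th1 markers summed to 128 RPKM in the actinomycin library at 0 h, against 126, 575 and 101 RPKM in Th0, Th1 and Th2 at 16 h. Th2 markers summed to 96.2 RPKM there, against 122, 95.5 and 108 RPKM. The culture condition of the actinomycin libraries was not tested. B cell markers summed to 5.17 RPKM in this library, against 29.1, 23.2 and 39.2 RPKM in Th0, Th1 and Th2 at 16 h. Titles of the actinomycin libraries also lack the number carried by those of the cultures. Whatever it marks cannot be told apart from condition. Genes listed for T cell activation fell in 9 of 16 cases under actinomycin, for example Cd69 (-0.54 ± 0.06 per hour) and Myc (-0.42 ± 0.06 per hour), and none rose.

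**Figure D5:**
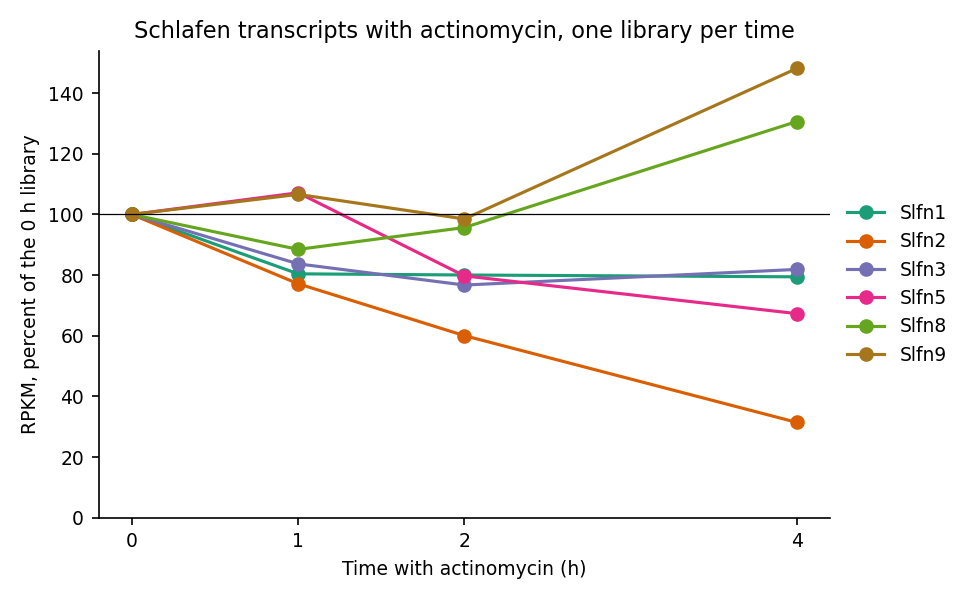
RPKM of each member as a percentage of the library at 0 h (vertical axis, from 0) against hours with actinomycin (horizontal axis), with 1 library per time point. Slfn2 went down at every step to 31.5%, Slfn1 stayed near 80% from 1 h on, and Slfn8 and Slfn9 ended at 131% and 148%.

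The other Schlafen entries of the table were Slfn4, Slfn14 and Slfnl1. Slfn4 lay between 1.89 and 3.07 RPKM throughout the time course. Slfnl1, a Schlafen-like gene on chromosome 4, had at most 8 reads in any of these libraries. Slfn14, known from platelets and red cells, was at 8.66 and 9.07 RPKM at rest, between 1.85 and 2.97 RPKM at 4 h, and had 8 reads or fewer in each culture from 16 h on. Red cell transcripts summed to 38904 and 42455 RPKM at rest, 29413 to 47144 RPKM at 4 h and 1467 to 2037 RPKM at 16 h. Monocyte and macrophage markers summed to 1127 and 1147 RPKM at rest and to between 142 and 182 RPKM at 4 h. The part of either in the Slfn14 values was not tested.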

How the data were processed

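The authors deposited 1 table of RPKM values per gene for all 24 libraries; per the labels it was built on total RNA, and the submitters' processing notes name BWA and GRCm38. The counting tool, annotation and strandedness are not given in the sources used here. A row with no gene name, at 0 throughout, was left out. The labels call the cells purified CD4+ cells. Groups were taken from the labels.

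The members and gene lists were chosen with earlier results of these data known. Depth was recovered from single-transcript genes (56.5% to 59.0% of them gave whole reads within a tolerance of 0.002). Intervals are exact Poisson or conditional binomial at 95%. limma 3.58.1 in R 4.3.3 was fitted with an intensity trend to log2(RPKM + 0.5) of all genes averaging 1 RPKM or more, with Benjamini-Hochberg adjustment over all of them. A gene was called where its adjusted p was under 0.05 and it moved 2-fold or more (actinomycin: adjusted p only). A fold change on this scale understates changes of low genes. Th0, Th1 and Th2 of a time point stood as its 3 libraries, so the spread of the time comparisons includes the differences between conditions. The fits were also run on simulated data with independent noise in each library, and the outcome is not given here. Differences between conditions that stand as libraries of a time point were not simulated for the time comparisons. Named genes were the members, the other Schlafen entries, the 3 genes most like each member, and the largest changes of a list; the Slfn14 value under actinomycin was chosen after values were seen. Python 3.11.15, numpy 2.4.6, pandas 2.3.3 and scipy 1.17.1 were used. The alternatives changed the pseudocount (0.1 or 1), the filter (none, or an average of 5 RPKM or more), the scaling (quantile, upper-quartile or median-of-ratios) and the trend (none), used fewer libraries, or left out haemoglobin genes. The result of another motif search is not reported here. Protein lengths and identities were planned and not analysed here.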

Additional observations from a re-analysis of the deposited data

Results flagged for a closer look

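Slfn1 stood on opposite sides of resting cells in Th0 and Th2. In the 4 Th0 libraries from 12 to 24 h it lay between 105 and 204 RPKM, above both resting libraries (91.1 and 93.0 RPKM), and in the 4 Th2 libraries of the same hours between 58.4 and 79.1 RPKM, below both. The 4 Th1 libraries, from 70.4 to 145 RPKM, fell on either side. The difference itself, Th2 against Th0 over all 18 cultures, was -1.11 ± 0.13 on the log2 scale (limma, adjusted p = 2.42e-05, lower in 6 of 6 time points); that Th0 was above and Th2 below resting cells was not tested separately.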

How the results depend on the processing

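Each condition and time point is a single library, and 2 resting libraries carry every comparison with rest. Of 915 values of single members under an alternative, 884 kept their direction and side of the threshold. A call was lost in 15, gained in 4, and the sign turned in 12. Most of the 915 belong to changes that were not called in the main fit, and staying not called counts among the 884. For Th1 against Th0 and the changes with time only chosen members were counted. The number of members called was 1 in place of 3 at 4 h without either resting library or without the Th1 cultures (1 to 3 over all libraries left out), 1 in place of 2 at 8 h without the Th1 cultures (1 to 3), 1 in place of 0 for Th2 against Th1 over 12 to 24 h (Slfn5), and 0 to 1 for the change of Th2 against Th0 with time. That 1 was Slfn1 without the 4 h time point (1.08, adjusted p = 0.0241); its value otherwise was 0.06, and leaving out single time points gave -0.33 to 1.08. Changes that were not called turned sign in the following cases. With quantile normalization, Slfn3 was at 0.080 at 4 h and 0.13 at 20 h, Slfn9 at 0.0012 at 16 h, and Slfn2 at -0.052 for 24 h against 4 h. With median-of-ratios scaling, Slfn1 was at 0.049 at 20 h. Over 12 to 24 h, Slfn3 was at 0.029 for Th2 against Th0. With libraries left out, Slfn1 at 20 h ran from -0.30 to 0.25, Slfn9 for 24 h against 4 h from -0.083 to 0.27, and the actinomycin slopes from -0.030 to 0.18 for Slfn8 and -0.0096 to 0.16 for Slfn9. The cause of these changes was not tested. Quantile normalization moved the median of all genes at 24 h against resting from -0.04 to 0.13 and the calls from 1389 up and 1891 down to 1864 up and 1586 down, and kept every call of a member. With a mean of at least 5 RPKM, Slfn9 left every fit and Slfn5 the actinomycin fit. The conditions were matched by time point throughout. The time comparisons were not paired within the Th0, Th1 and Th2 series, although each series was sampled at every time point. The 2 resting libraries belong to no series.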

Other observations

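Slfn14, a long Schlafen gene outside the 6 members, was near the counting floor in the first 3 actinomycin libraries (6, 5 and 7 reads at 0, 1 and 2 h) and had 99 reads at 4 h (1.48 RPKM). The ratio of 4 h to 0 h was 23.5 (95% interval 10.4 to 65.6, counting error only). Red cell transcripts summed to 2522, 1405, 1149 and 2279 RPKM at 0, 1, 2 and 4 h, and were highest at 0 h. The 20 monocyte and macrophage markers summed to 124, 137, 147 and 137 RPKM. Their part in the Slfn14 values was not tested. The value rests on 1 library and was chosen after the values were seen.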
